A study of Rattus norvegicus with 6 samples.

Results

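Cytochrome P450 genes (Cyp genes) were examined in 2 cell fractions of the rat renal inner medulla. Members were the probe sets whose only annotated gene symbol begins with Cyp and a digit, other than the sterol demethylase Cyp51, and each gene was represented by its brightest probe set over all 6 arrays. This gave 57 of the 14217 genes measured, from 64 of 31042 probe sets. Of these genes 6 had more than 1 probe set, and 7 further probe sets annotated to several symbols that include a Cyp gene were not members.

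P450s are heme enzymes that insert oxygen into small lipophilic molecules, most of them in the endoplasmic reticulum with electrons from the reductase Por and some in mitochondria with electrons from ferredoxin. In the kidney they are known for turning arachidonic acid into epoxides and omega-hydroxylated acids that act on vessels and salt transport, and for activating and inactivating vitamin D. Other members break down retinoic acid, make steroids and bile acids, or oxidise drugs and other foreign compounds, and many of these are known mainly from the liver or the proximal tubule.

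Both fractions came from inner medullae of male Sprague-Dawley rats that had all received 1 mg of the loop diuretic furosemide 30 min beforehand, followed by digestion of the tissue with collagenase B and hyaluronidase for 75 min at 37 °C. The IMCD fraction (3 arrays) was enriched in inner medullary collecting duct cells by centrifugation at low speed, and the nonIMCD fraction (3 arrays) was what remained in the supernatant, so each is a mixture and no untreated group was used here. The labels give 7 rats and 3 pairs of fractions without saying which rats or which pairs went to which array, and they give the age as 6 weeks on 1 array, IMCD replicate 1, while all 5 others carry 10 weeks. Values are deposited intensities of an Affymetrix rat expression array, linear and scaled by the authors, and differences are on the log2(intensity + 16) scale, IMCD minus nonIMCD.

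Markers mostly matched the labels, though less clearly for some lists. Over all genes limma called 25.8% (adjusted p under 0.05), with 10.0% higher in IMCD and 15.7% lower. Of 10 principal cell genes of the collecting duct 9 were higher in IMCD by limma, with a summed intensity of 189559 to 199745 against 86733 to 115050 in nonIMCD. The gene not called was the water channel Aqp2, bright in both fractions and overlapping. It had 47833, 53804 and 56084 in IMCD against 37998, 41265 and 50634 in nonIMCD (0.29, limma adjusted p = 0.261). In IMCD all 10 endothelial genes measured were lower (14512 to 18534 against 71112 to 77683), as were all 12 leukocyte genes (2500 to 3082 against 104416 to 128842), all 3 thin limb genes (4571 to 7194 against 59569 to 82221) and all 3 erythroid genes (747 to 3040 against 29645 to 87145). Interstitial cells and pericytes had 5 of 11 genes lower (3464 to 4007 against 23514 to 24322). Of 8 thick ascending limb genes 3 (37.5%) were lower (2130 to 6737 against 7337 to 11100), and of 5 intercalated cell genes 2 (40.0%) were higher (6642 to 11309 against 3031 to 5735). Of 5 urothelial genes limma called 0, with 1 lower at an unadjusted p under 0.05 (295 to 344 against 415 to 525). Of 13 proximal tubule genes 3 (Lrp2, Gatm and Ggt1) were lower (1508 to 1721 against 7300 to 8669). The share called was 23.1%, near that of all genes. Of the 4 with a mean log2 value of 7 or more 3 were called, against 31.0% of all genes that bright. Among the 13, 5 (Cubn, Slc5a1, Slc5a2, Slc22a6 and Fbp1) had means at or under 78.4 in both fractions, the highest intensity of a negative control (a bacterial transcript not in the labelling kit). Of the other 8, Slc34a1 had such a mean in nonIMCD and Pck1 in IMCD, and 6 had means above it in both, among them Slc22a8 and Slc27a2. The 3' to 5' log2 ratio of the rat control transcripts, a guide to RNA integrity, was 0.68 ± 0.03 on IMCD and 1.33 ± 0.14 on nonIMCD arrays (SD, n = 3). These markers and this ratio moved with every fraction difference below, and their part in those differences was not tested. In such bulk fractions, fewer cells of a type and less RNA per cell cannot be told apart.

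Few Cyp genes separated the fractions. By limma's test with Benjamini-Hochberg adjustment over all probe sets (adjusted p under 0.05), 3 of 57 were higher in IMCD, 2 were lower and 52 missed the threshold, a share of 8.77% against 25.8% of all genes. For higher calls the share of all genes was 10.0% and for lower calls 15.7%. The higher genes were Cyp4b1, Cyp2c23 and Cyp2j4, and the lower genes were Cyp26b1 and Cyp2t1. At an unadjusted p under 0.05 there were 5 higher and 3 lower. All 5 calls fell among the 20 Cyp genes with a mean log2 value of 7 or more, of which 3 were higher and 2 lower, against 12.5% higher, 18.5% lower and 31.0% either way among all genes that bright. The arrays of the fractions did not overlap for 13 Cyp genes, against 48.7% of all genes. The median difference was -0.11 over the Cyp genes and -0.093 over all genes.

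The split of calls moved with the scaling of the arrays. With each array centred on its median, 6 Cyp genes were higher and 1 was lower, and after quantile normalization 5 were higher and 1 was lower. These scalings put the median of all genes at 0.19 and 0.018 and that of the Cyp genes at 0.17 and 0.089. Calls of Cyp26b1 and Cyp4b1 held under all 15 alternatives tried, while those of Cyp2c23, Cyp2j4 and Cyp2t1 did not, as given beside each gene.

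Most Cyp transcripts gave little signal. A mean log2 value under 7 was found for 37 of 57 Cyp genes, compared with 3248 of 14217 genes in all. None of these 37 passed the test by limma, with 0 higher and 1 lower at an unadjusted p under 0.05, and their intensities ran from 1.77 to 216 over all arrays. For 25 Cyp genes the mean lay at or under 78.4 in both fractions, and for 19 no array exceeded it. At 17 Cyp genes every array was above that value. Over all genes, 271 of the 3248 with a mean log2 value under 7 passed.

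**Figure D1:**
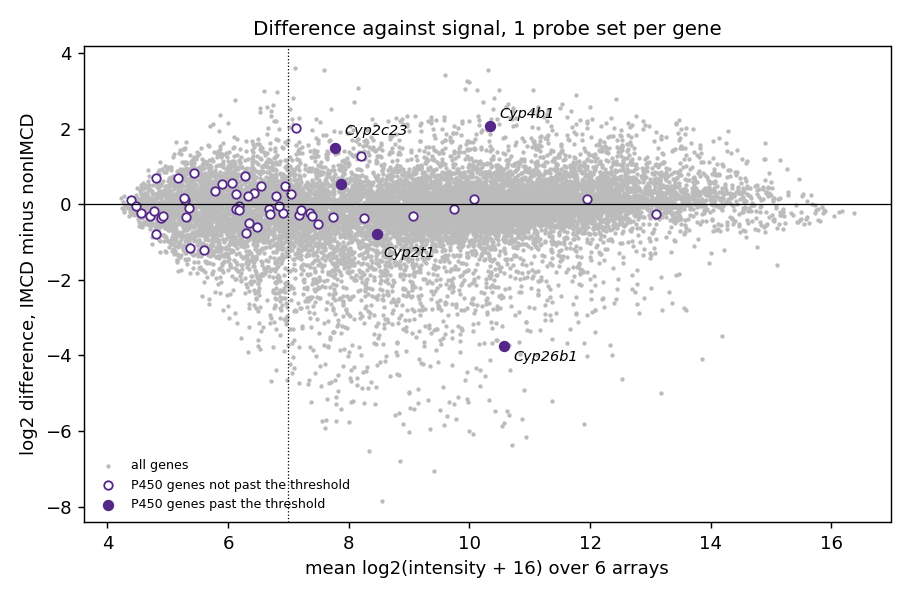
Log2 difference (IMCD minus nonIMCD) against the mean log2(intensity + 16) over 6 arrays, 1 point per gene; grey points are all 14217 genes, purple points the 57 P450 genes, filled where adjusted p was under 0.05, and the dotted line marks a mean of 7. The filled points all lie to the right of the line, with Cyp26b1 at -3.74 and Cyp4b1 at 2.08 farthest from 0 among them.

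**Figure D2:**
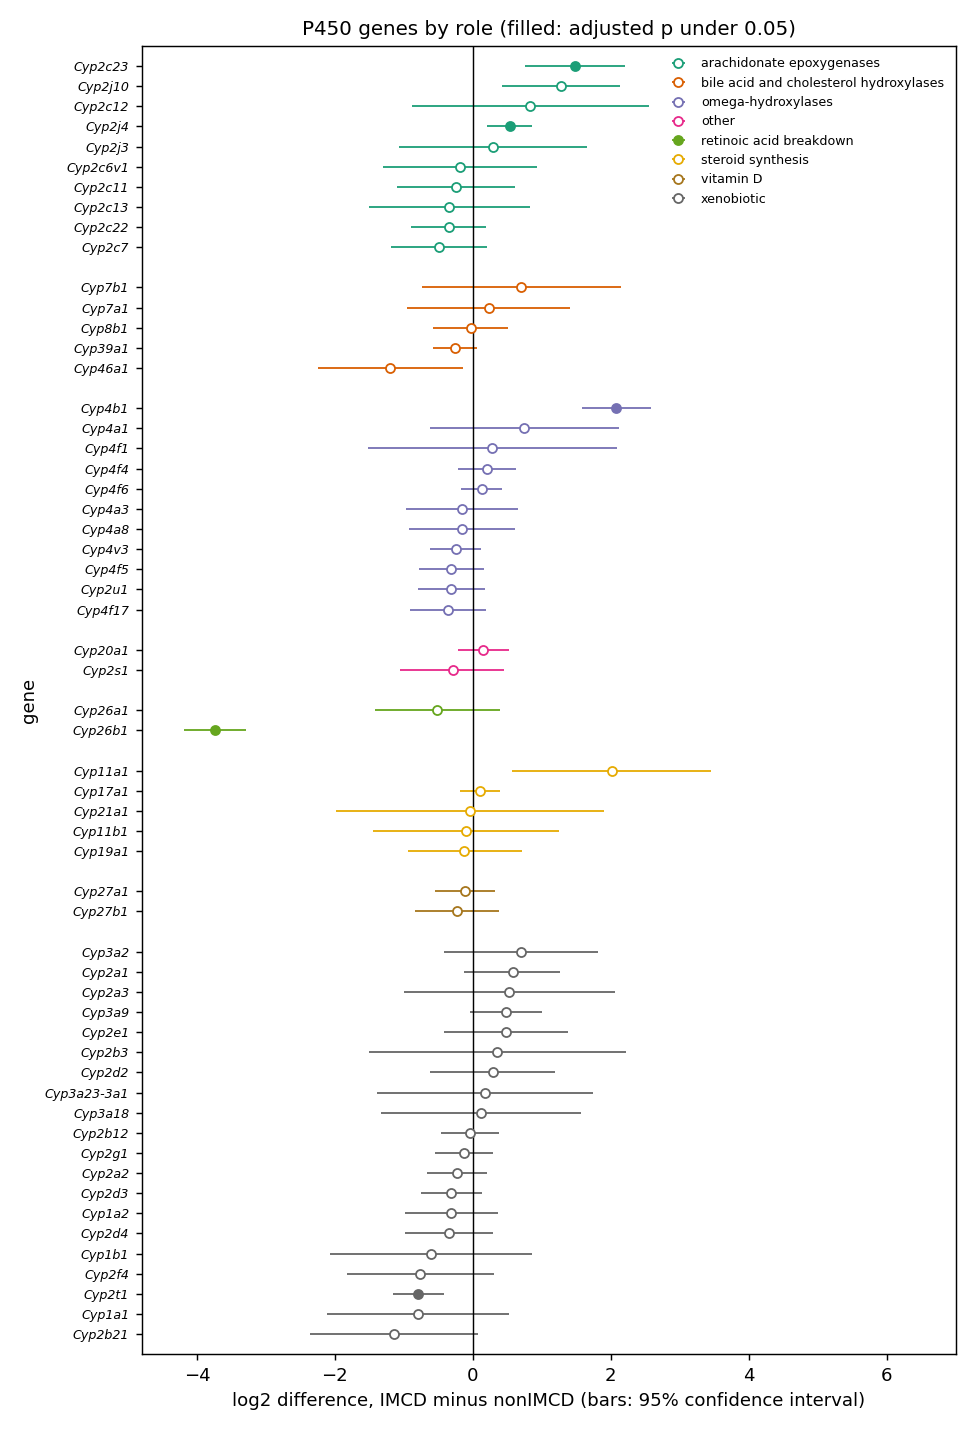
Log2 difference (IMCD minus nonIMCD) of each of the 57 P450 genes with its 95% confidence interval from the limma fit, grouped and coloured by role; filled circles passed the threshold. Most intervals cross 0, and the interval of Cyp26b1 (-4.19 to -3.29) lies apart from all others.

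Retinoic acid breakdown held the largest difference. Cyp26b1, which hydroxylates and so inactivates retinoic acid, had intensities of 420, 334 and 462 on the IMCD arrays and 4896, 5478 and 6447 on the nonIMCD arrays. Every nonIMCD array was far above every IMCD array. The nonIMCD mean was 13.8 times the IMCD mean (5607 ± 784 against 405 ± 65.2, SD, n = 3), and the log2 difference was -3.74 ± 0.18 (SE, adjusted p = 0.000292 by limma). A second, dimmer probe set of Cyp26b1 gave 72.2, 51.8 and 84.1 in IMCD, close to the highest negative control, and 582, 783 and 886 in nonIMCD, a difference of -3.16 ± 0.23 (SE, limma adjusted p = 0.000701). Leaving out 1 array at a time kept the difference between -3.84 and -3.61, with adjusted p from 0.00189 to 0.00349.

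The paralog Cyp26a1, which acts on the same substrate, did not pass. Its IMCD arrays had 134, 103 and 171 and its nonIMCD arrays 308, 215 and 115, so the groups overlapped. The difference was -0.52 with a 95% interval of -1.42 to 0.39 (limma adjusted p = 0.377).

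Upstream sequence is shown for both Cyp26 genes, since they share a substrate and Cyp26a1 is known to be induced by retinoic acid, and for Cyp4b1, the other gene whose call held throughout. Each is the 250 bases before the annotated start (RefSeq, GRCr8), read 5′ to 3′ in the direction of the gene. Capitals mark every match, on either strand, to the retinoic acid receptor repeat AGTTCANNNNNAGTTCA or its single hexamer AGTTCA, the nuclear receptor hexamer AGGTCA, the dioxin response element core GCGTG, the TATA box TATAAA and the GC box GGGCGG. The repeat contains 2 copies of AGTTCA, and the other motifs were searched on their own.
Cyp26a1, chr1:244883572-244883821, plus strand: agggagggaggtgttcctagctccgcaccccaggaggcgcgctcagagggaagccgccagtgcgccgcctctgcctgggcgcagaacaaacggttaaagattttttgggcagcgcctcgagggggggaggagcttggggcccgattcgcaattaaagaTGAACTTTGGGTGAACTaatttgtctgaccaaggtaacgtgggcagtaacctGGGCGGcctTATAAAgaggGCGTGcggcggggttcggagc
Cyp26b1, chr4:118616177-118616426, minus strand: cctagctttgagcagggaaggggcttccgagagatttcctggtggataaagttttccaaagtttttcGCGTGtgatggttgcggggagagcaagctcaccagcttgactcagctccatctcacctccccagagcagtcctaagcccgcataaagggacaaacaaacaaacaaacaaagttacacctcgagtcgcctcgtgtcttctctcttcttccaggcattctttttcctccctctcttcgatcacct
Cyp4b1, chr5:134393117-134393366, minus strand: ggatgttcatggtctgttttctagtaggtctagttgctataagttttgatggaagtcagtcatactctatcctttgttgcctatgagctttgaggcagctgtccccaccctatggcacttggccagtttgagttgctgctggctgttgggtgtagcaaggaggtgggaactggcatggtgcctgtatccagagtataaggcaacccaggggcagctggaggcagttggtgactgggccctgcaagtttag

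The upstream window of Cyp26a1 held the retinoic acid receptor repeat on the opposite strand, written there as its reverse complement. It was 1 of 3 windows with that exact spelling among 27457 windows of this length (0.0109%). No other spelling of the repeat was searched, and the motifs were chosen after the values were seen. The share therefore describes this spelling only and does not test how rare such repeats are. Cyp26b1 had 1 match to GCGTG and none to the other motifs, and Cyp4b1 had none to any of them. Among 45 Cyp genes with a RefSeq window, AGGTCA was found in 16 (35.6%, against 13.7% of all windows), AGTTCA in 12 (26.7%, against 12.1%) and TATAAA in 13 (28.9%, against 13.1%). GCGTG was found in 10 (22.2%, against 27.2%) and GGGCGG in 14 (31.1%, against 32.4%). A match describes the letters of the window and not the binding of a factor.

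Of 16 measured genes of retinoid storage, synthesis, binding and response 3 were higher in IMCD, 6 were lower and 7 missed the threshold, with a median of -0.67 and 56.2% called, against 25.8% of all genes. Genes of retinoic acid synthesis went in opposite directions. The retinaldehyde dehydrogenase Aldh1a2 had 202, 247 and 225 in IMCD against 1358, 1318 and 831 in nonIMCD, a difference of -2.27 ± 0.23 (SE, limma adjusted p = 0.00184). The related Aldh1a1 had 16083, 14616 and 14581 in IMCD against 3685, 3124 and 4582 in nonIMCD (2.00 ± 0.17, SE, limma adjusted p = 0.00127). Aldh1a3 had 40794, 36288 and 40033 against 12046, 7250 and 12189 (1.93 ± 0.24, SE, limma adjusted p = 0.00353). For these 3 dehydrogenases no IMCD array overlapped a nonIMCD array.

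Lrat, which esterifies retinol for storage, had 23.4, 22.1 and 131 in IMCD against 407, 423 and 436 in nonIMCD (-2.86 ± 0.54, SE, limma adjusted p = 0.016). With an IMCD mean below the brightest negative control, its size is uncertain. Without IMCD replicate 1 or any 1 of the nonIMCD arrays Lrat missed the threshold, with adjusted p up to 0.0554. Rarres1, named for its response to retinoids, averaged 34.0 ± 32.3 (IMCD, also below that control) against 342 ± 49.5 (nonIMCD; SD, n = 3), with a difference of -3.01 (limma adjusted p = 0.00621). The retinoic acid carrier Crabp2 was higher in IMCD (1237 ± 413 against 264 ± 42.5, SD, n = 3), by 2.11 (limma adjusted p = 0.00558).

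The receptor Rarb was lower in IMCD, with 886, 936 and 932 against 2257, 1856 and 1836 (-1.09 ± 0.14, SE, limma adjusted p = 0.00383). The receptor Rara did not pass (-0.034, limma adjusted p = 0.875). Dhrs3, which returns retinaldehyde to retinol, was lower by limma (-0.91, adjusted p = 0.00982), as was Rarres2 (-1.05, adjusted p = 0.035), whose call ended under median centring, quantile normalization and in 5 of the 6 leave-one-out fits. Rdh10, which makes retinaldehyde, had 0.82 (limma adjusted p = 0.0543) and passed under both of those scalings. Without 1 array the count of lower retinoid genes ranged from 4 to 6 and that of higher ones from 3 to 4. In this list Aldh1a1, Aldh1a3, Crabp2, Rarb, Rara, Dhrs3, Rarres2 and Rdh10 were named after their values were seen.

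**Figure D3:**
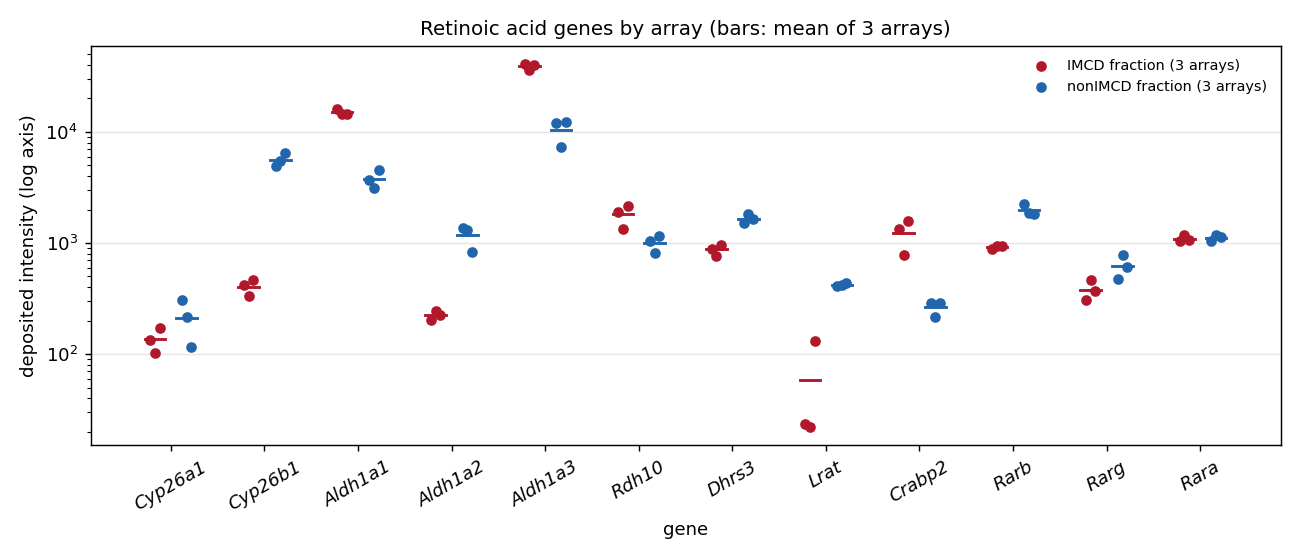
Deposited intensity (log axis) on each array for the Cyp26 genes and 10 other genes of retinoic acid metabolism and response; red points are the 3 IMCD arrays, blue points the 3 nonIMCD arrays and bars their means. Cyp26b1, Aldh1a2, Dhrs3, Lrat and Rarb are higher in nonIMCD, Aldh1a1, Aldh1a3 and Crabp2 higher in IMCD, and the points of Cyp26a1 and Rara overlap.

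Among enzymes that hydroxylate fatty acids at or near the omega end, 1 of 11 was higher in IMCD, 0 were lower and 10 missed the threshold, with a median of -0.15. The share called was 9.09%, against 25.8% of all genes. Of the 7 with a mean log2 value of 7 or more 1 was called, against 31.0% of all genes that bright. Cyp4b1, which oxidises fatty acids and some foreign compounds, had 3289, 2691 and 2123 in IMCD and 625, 544 and 691 in nonIMCD. The lowest IMCD array was above the highest nonIMCD array. The IMCD mean was 4.35 times the nonIMCD mean (2701 ± 583 against 620 ± 73.9, SD, n = 3), a log2 difference of 2.08 ± 0.20 (SE, limma adjusted p = 0.00175). Without 1 array it was 1.93 to 2.24, with adjusted p from 0.00417 to 0.0111.

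The other 10 omega-hydroxylases had differences of -0.36 to 0.75. Cyp4v3, a fatty acid hydroxylase, had 8676, 7460 and 7926 in IMCD and 10802, 8353 and 9524 in nonIMCD, a difference of -0.25 with a 95% interval of -0.62 to 0.12 (limma adjusted p = 0.299). A dimmer Cyp4v3 probe set gave -0.32 (adjusted p = 0.203). Cyp4f6, of a subfamily that hydroxylates leukotrienes and other eicosanoids, had 1120 ± 51.5 and 1020 ± 69.0 (SD, n = 3), a difference of 0.13 with an interval of -0.17 to 0.43 (limma adjusted p = 0.493). Cyp2u1, another fatty acid hydroxylase, had -0.31 with an interval of -0.80 to 0.18 (limma adjusted p = 0.332). For Cyp4v3 and Cyp4f6 the intervals thus leave out a doubling or halving, which is 1 on this scale.

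The Cyp4a genes make 20-HETE, the omega-hydroxylated arachidonic acid of the proximal tubule and vessels. The highest mean of any Cyp4a gene measured (Cyp4a3) was 129 ± 49.7 in IMCD against 144 ± 45.8 (SD, n = 3). Cyp4a1 had 0.75, Cyp4a3 -0.15 and Cyp4a8 -0.16, all 3 with overlapping arrays and with limma adjusted p of 0.397 to 0.783. For Cyp4a3 the interval ran from -0.97 to 0.66 and for Cyp4a1 from -0.62 to 2.12.

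Of 10 genes of the Cyp2c and Cyp2j subfamilies, which include the arachidonic acid epoxygenases, 2 were higher in IMCD, 0 were lower and 8 missed the threshold, with a median of 0.056. The share called was 20.0%, against 25.8% of all genes. Both calls fell among the 3 with a mean log2 value of 7 or more, against 31.0% called of all genes that bright. Cyp2c23, the main renal epoxygenase of the rat, had 423, 350 and 290 in IMCD and 134, 155 and 71.7 in nonIMCD. The groups did not overlap. The IMCD mean was 2.95 times the nonIMCD mean (354 ± 66.5 against 120 ± 43.5, SD, n = 3), and the log2 difference was 1.48 ± 0.29 (SE, limma adjusted p = 0.0188). Leaving out IMCD replicate 1 (1.35, adjusted p = 0.0648) or IMCD replicate 2 (1.48, adjusted p = 0.0577) ended the call.

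Cyp2j4 had 278, 261 and 255 in IMCD and 192, 186 and 156 in nonIMCD, without overlap. The difference was 0.54 ± 0.13 (SE, limma adjusted p = 0.0369). It lost its call with any 1 array left out, with differences from 0.45 to 0.59 and adjusted p from 0.0732 to 0.117, and also with an intensity trend in the variance (adjusted p = 0.149).

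Cyp2j10 had 452, 366 and 518 in IMCD and 102, 180 and 274 in nonIMCD, again without overlap. Its difference of 1.28 ± 0.35 narrowly missed the threshold (SE, limma adjusted p = 0.0501), and it passed once arrays were median-centred (1.56, adjusted p = 0.022) or quantile-normalized (1.54, adjusted p = 0.0247). The third Cyp2j gene, Cyp2j3, was dim and its probe sets disagreed. The brighter one gave 0.29 (limma adjusted p = 0.752), and the dimmer one, of a type shared by transcripts of a gene, gave -1.75 (limma adjusted p = 0.0477) with IMCD intensities of 4.13 to 31.7. Of the Cyp2c genes other than Cyp2c23, 6 had mean log2 values under 7 and 0 passed.

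Of 8 measured genes that release arachidonic acid, compete for it or break down epoxides, 3 were higher, 1 was lower and 4 missed the threshold, with a median of 0.64 and 4 of 8 called, against 25.8% of all genes. The cyclooxygenases Ptgs1 and Ptgs2 were higher in IMCD, by 1.68 ± 0.16 and 2.22 ± 0.23 (SE, limma adjusted p = 0.0015 and 0.00202). The Ptgs2 means were 7962 ± 1418 (IMCD) and 1707 ± 421 (nonIMCD; SD, n = 3). Tbxas1, the thromboxane synthase, itself a P450 under another symbol, was lower, with 130, 104 and 131 in IMCD against 1143, 1463 and 953 in nonIMCD (-3.11 ± 0.20, SE, limma adjusted p = 0.000526). The microsomal epoxide hydrolase Ephx1 was higher (0.96 ± 0.15, SE, limma adjusted p = 0.00758). The soluble hydrolase Ephx2, which converts arachidonic acid epoxides to diols, had 1308, 1454 and 1372 against 1170, 1054 and 956 (0.38, limma adjusted p = 0.102), and it passed under median centring (0.66) and quantile normalization (0.51). The 2 hydrolases were named after their values were seen.

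**Figure D4:**
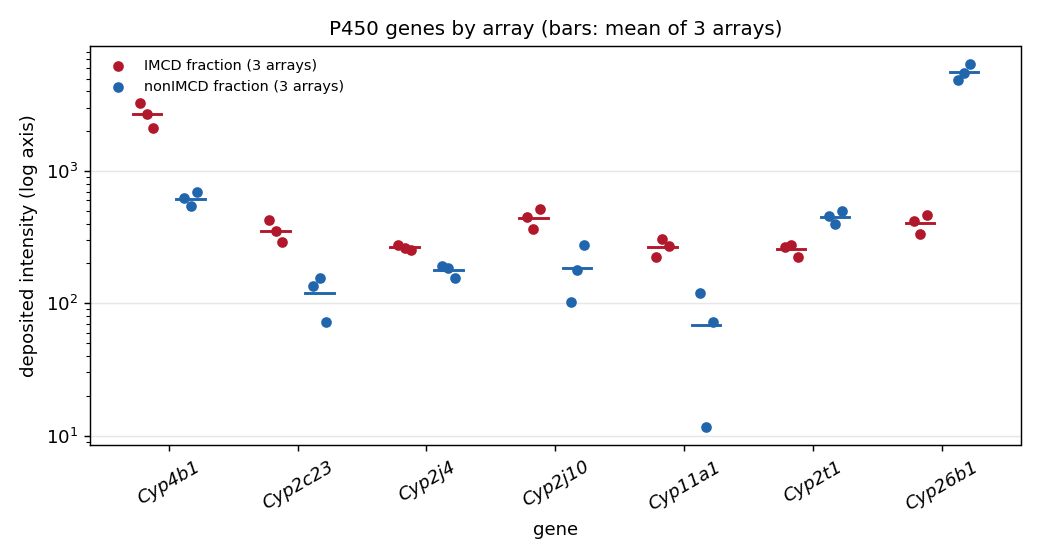
Deposited intensity (log axis) on each array for the 5 P450 genes past the threshold and for Cyp2j10 and Cyp11a1, which missed it; red points are the 3 IMCD arrays, blue points the 3 nonIMCD arrays and bars their means. The fractions do not overlap for any of the 7 genes, and nonIMCD replicate 2 is low for Cyp11a1 at 11.6.

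Of 5 steroid synthesis genes limma called 0, against 25.8% of all genes, with 1 higher at an unadjusted p under 0.05. That gene was Cyp11a1, the mitochondrial side-chain cleavage enzyme that begins steroid synthesis from cholesterol. It had 224, 304 and 269 in IMCD and 120, 11.6 and 72.5 in nonIMCD. The arrays did not overlap, but the nonIMCD arrays spread widely, and the difference of 2.02 ± 0.59 missed the threshold (SE, limma adjusted p = 0.06). Without nonIMCD replicate 2 the difference fell to 1.35 and passed (adjusted p = 0.0328), and under median centring it was 2.30 (adjusted p = 0.0365). The other 4 genes, among them the aromatase Cyp19a1 and the adrenal 21-hydroxylase Cyp21a1, had mean log2 values under 7 and differences of -0.12 to 0.11.

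The vitamin D hydroxylases did not differ past the threshold. Cyp27b1, which makes the active hormone and is known mainly from the proximal tubule, had 154, 130 and 125 in IMCD and 172, 219 and 112 in nonIMCD, overlapping, with a difference of -0.23 (95% interval -0.84 to 0.38, limma adjusted p = 0.557). Cyp27a1, a mitochondrial sterol 27-hydroxylase that can also act on vitamin D, had 702, 735 and 1025 in IMCD against 887, 856 and 888 in nonIMCD (-0.11, 95% interval -0.55 to 0.32, limma adjusted p = 0.697). The sign of both turned under median centring and quantile normalization. Of 13 genes of vitamin D action and uptake 0 were higher, 3 were lower and 10 missed the threshold, with a median of -0.033. The share called was 23.1%, near the 25.8% of all genes. Of the 7 with a mean log2 value of 7 or more 2 were called, against 31.0% of all genes that bright. The lower genes were the endocytic receptor Lrp2 (-3.34 ± 0.19, SE, limma adjusted p = 0.000425), the receptor partner Rxrb (-0.92, adjusted p = 0.0321) and the calcium-binding gene S100g (-0.92, adjusted p = 0.0147), whose means lay under the highest negative control. Lrp2 and Cubn of this list are also among the proximal tubule markers above. Rxrb lost its call under median centring, quantile normalization and 5 of the 6 leave-one-out fits, and S100g without IMCD replicate 2 or with an intensity trend. The vitamin D receptor Vdr had 169, 242 and 198 in IMCD and 11.9, 101 and 85.3 in nonIMCD, without overlap, but did not pass (1.65, limma adjusted p = 0.094). It passed without nonIMCD replicate 1 (adjusted p = 0.041), with a pseudocount of 64 and with an intensity trend.

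Of 20 P450 genes of the families known for foreign compounds 0 were higher, 1 was lower and 19 missed the threshold, with a median of -0.084. Cyp2t1, a member of the Cyp2 family, had 268, 275 and 223 in IMCD and 459, 401 and 499 in nonIMCD, without overlap. The difference was -0.79 ± 0.15 (SE, limma adjusted p = 0.0164). The call ended when arrays were median-centred (-0.50, adjusted p = 0.0571) or quantile-normalized (-0.52, adjusted p = 0.0632), and without IMCD replicate 3 (-0.70, adjusted p = 0.0501) or nonIMCD replicate 1 (-0.78, adjusted p = 0.0585).

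The dioxin-inducible Cyp1a1 had 4.77, 5.04 and 5.84 in IMCD and 9.87, 71.8 and 5.96 in nonIMCD, all at or under the highest negative control. The ethanol-inducible Cyp2e1 had 105, 91.3 and 216 against 78.1, 128 and 66.4, overlapping (0.48, limma adjusted p = 0.412). The extrahepatic Cyp1b1 had 68.6 ± 53.3 and 101 ± 46.8 (SD, n = 3), a difference of -0.60 (limma adjusted p = 0.524). The largest difference among those that did not pass was that of Cyp2b21 (-1.14, 95% interval -2.36 to 0.073, limma adjusted p = 0.163), with means of 15.3 and 48.2. Without IMCD replicate 3 it was -1.63 and passed (adjusted p = 0.0438).

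Of 5 bile acid and cholesterol hydroxylases limma called 0, against 25.8% of all genes, and all 5 had mean log2 values under 7. At an unadjusted p under 0.05 1 gene was lower. That gene was Cyp46a1, the cholesterol 24-hydroxylase of neurons, with 17.4, 14.3 and 16.6 in IMCD and 35.4, 36.7 and 131 in nonIMCD (-1.20, limma adjusted p = 0.105). It passed without nonIMCD replicate 3, the highest array, at -0.70 (adjusted p = 0.0301). The bile acid 12-alpha-hydroxylase Cyp8b1, known from the liver, had 100 ± 31.7 and 100 ± 11.4 (SD, n = 3). Outside these groups were Cyp20a1, whose substrate is not settled, and Cyp2s1. Cyp20a1 had 3822, 3910 and 4855 against 4095, 3489 and 3685 (0.15, 95% interval -0.22 to 0.53, limma adjusted p = 0.526), and Cyp2s1 had 119 ± 43.9 against 146 ± 39 (SD, n = 3).

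Genes of a list drawn up for electron supply to P450s, which includes Cyb5b, Cyb5r2 and Pgrmc1, went both ways. Whether each member acts as a donor was not tested. Of 8 measured 4 were higher in IMCD, 1 was lower and 3 missed the threshold, with a median of 0.41. The share called was 62.5%, against 25.8% of all genes. All 8 had a mean log2 value of 7 or more, and 31.0% of all genes that bright were called. Por, the reductase that feeds all microsomal P450s, had 1796, 1596 and 1576 in IMCD and 3181, 3009 and 2737 in nonIMCD (-0.84 ± 0.13, SE, limma adjusted p = 0.00814), and its call held under all 15 alternatives. The outer mitochondrial cytochrome b5 (Cyb5b) was higher (8002 ± 639 against 3873 ± 1123, SD, n = 3), by 1.08 (limma adjusted p = 0.0248), and so was the b5 reductase Cyb5r2 (1.08, adjusted p = 0.0305). The ferredoxin Fdx1, which serves mitochondrial P450s, and the microsomal Cyb5a, both named after their values were seen, had 0.65 and 0.51 (limma adjusted p = 0.0449 and 0.0447). The 4 higher calls fell to 2 after quantile normalization and to between 0 and 1 without 1 array.

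Of 14 regulators of P450 transcription 2 were higher, 2 were lower and 10 missed the threshold, with a median of 0.44. The share called was 28.6%, against 25.8% of all genes. All 4 calls fell among the 7 regulators with a mean log2 value of 7 or more, against 31.0% of all genes that bright. The glucocorticoid receptor Nr3c1 was lower, with 880, 1038 and 946 in IMCD against 3222, 2781 and 2842 in nonIMCD (-1.61 ± 0.13, SE, limma adjusted p = 0.00108). The aryl hydrocarbon receptor Ahr, which activates Cyp1 genes, was also lower (-1.21, limma adjusted p = 0.0263), but its other probe set gave 0.13 (adjusted p = 0.839), so its direction depended on the probe set, and it also missed the threshold under both other scalings. The antioxidant response factor Nfe2l2 was higher (22654 ± 930 against 12616 ± 1034, SD, n = 3), by 0.85 (limma adjusted p = 0.00713). Tiparp, a target and repressor of Ahr that was named after its values were seen, was higher by 0.77 (limma adjusted p = 0.0145) and missed the threshold without IMCD replicate 1 or 3. The regulators Hnf4a, Nr1i3, Ppara and Nr1h4, all known from the liver, and Nr5a1, known from adrenal and gonad, were, in both fractions, no brighter on average than the top negative control.

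Of 11 genes of heme synthesis and breakdown 1 was higher, 1 was lower and 9 missed the threshold, with a median of 0.056. The share called was 18.2%, against 25.8% of all genes. All 11 had a mean log2 value of 7 or more, and 31.0% of all genes that bright were called. Hmox1, the inducible heme oxygenase, was higher (4676 ± 807 against 2244 ± 133, SD, n = 3), by 1.04 (limma adjusted p = 0.0101). Cpox, an enzyme of heme synthesis, was lower by limma (-0.55, adjusted p = 0.0221), and its call was lost under median centring and in 5 of the 6 leave-one-out fits. Of 11 conjugating and other second-phase enzymes 2 were higher, 1 was lower and 8 missed the threshold, with a median of 0.097. The share called was 27.3%, near the 25.8% of all genes. Of the 7 with a mean log2 value of 7 or more 2 were called, against 31.0% of all genes that bright. The sulfotransferase Sult1a1 was higher (7478 ± 928 against 2809 ± 392, SD, n = 3), by 1.41 (limma adjusted p = 0.00317), and the thiopurine methyltransferase Tpmt by 0.58 (adjusted p = 0.03), a call lost in all 6 leave-one-out fits. The sulfotransferase Sult1c3 was lower by limma (-1.34, adjusted p = 0.00587), with means of 6.59 and 42.0 under the highest negative control.

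Many Cyp genes lie side by side in the genome. In the RefSeq order of protein-coding genes (GRCr8), 36 of 57 members had another member with at most 5 genes between them, in 8 groups. Cyp4b1 lies next to Cyp4a1, Cyp4a3 and Cyp4a8 on chromosome 5, and in that group of 4 it was the member that passed, with differences from -0.16 to 2.08. Cyp2j4, Cyp2j10 and Cyp2j3 form a group of 3 on the same chromosome, with differences of 0.29 to 1.28 and 1 call. Cyp2t1 lies in a group of 10 on chromosome 1 with genes of the Cyp2a, Cyp2b, Cyp2f, Cyp2g and Cyp2s subfamilies, where it was the 1 call and differences ran from -1.14 to 0.58. The group of 5 Cyp2c genes on chromosome 1 had 0 calls by limma and differences of -0.49 to 0.83, and Cyp2c23 was not part of it. Among the other 4 groups limma called 0 members, and 1 of them, that of Cyp1a1, Cyp1a2 and Cyp11a1, spanned -0.80 to 2.02.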

How the data were processed

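RNA of 6 preparations was measured on Affymetrix rat expression arrays, about 3 µg of total RNA each. The deposited values are intensities, scaled by the authors so that the mean after trimming 2% at each end is 1000.3 to 1000.4 on every array; the software used is not given in sources used here. All 31042 probe sets other than 57 controls were tested as log2(intensity + 16) with limma 3.58.1 in R 4.3.3 (lmFit, eBayes, two-sided, 3 against 3 arrays, no covariate). The code was run on simulated arrays with independent noise, few changed probe sets and no scaling difference between fractions. That run therefore cannot speak to scaling or pairing in the real arrays. P-values were adjusted by Benjamini-Hochberg over all probe sets, and 0.05 was the threshold. Symbols came from the platform annotation, and all 57 Cyp genes matched RefSeq gene identifiers. Named genes were every Cyp gene past the threshold or with a mean log2 value of 10 or more, the brightest and the most different gene of each role, and up to 3 genes per partner list; others were named after their values were seen. Partner lists and markers were described by counts and medians, with no set test. The members and lists were chosen with earlier results of these data known. Nothing says that the arrays of a fraction come from separate animals, so p-values measure the spread between these arrays. Alternatives were the pseudocount (1 or 64), median centring, quantile normalization, leaving out probe sets with a mean log2 value under 7, an intensity trend, the replicate number as a block, probe sets averaged per gene, probe sets of shared types left out and each array left out. Motifs were chosen after the values were seen. Depth does not apply to arrays, whose number limits the precision.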

Additional observations from a re-analysis of the deposited data

How the results depend on the processing

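The count of higher Cyp genes, 3 as analysed, became 5 with a pseudocount of 64, 6 under median centring, 5 after quantile normalization and 5 with dim probe sets left out. Without 1 array it ranged from 1 to 3, lowest without IMCD replicate 1. The count of lower Cyp genes, 2 as analysed, became 1 under median centring and 1 after quantile normalization, and ranged from 1 to 3 without 1 array. The genes gained were Cyp11a1 and Cyp2j10 in each of the first 4 settings, with Cyp3a9 under median centring, and the gene lost from the lower ones under these scalings was Cyp2t1. With an intensity trend in the variance Cyp11a1 and Cyp2j10 were gained too, and Cyp2j4 was lost from the higher ones. With the replicate number as a block, 2 were higher and 1 was lower, Cyp2j4 (adjusted p = 0.0689) and Cyp2t1 (adjusted p = 0.0638) being lost. Among the partner genes named, the block also ended the calls of Ahr, Cpox, Cyb5a, Fdx1, Rarres2, Rxrb, S100g and Tpmt, with adjusted p from 0.0524 (Fdx1) to 0.0988 (Rarres2 and Rxrb), and Rdh10 passed (adjusted p = 0.033). Same-numbered arrays deviated together weakly (r = 0.0401, 0.035 and 0.0605 for numbers 1, 2 and 3), each array correlating best with its own number. Between arrays of different numbers r was negative, from -0.0363 to -0.000418. Deviations were taken from the mean of each fraction, so positive r for same numbers forces negative r on balance for the others. The negative sign is therefore no separate observation. The main fit was unpaired because the labels do not say which arrays form a pair. Whether the numbers mark pairs was not tested. Over all genes, 1427 were higher and 2239 lower as analysed, 2868 and 1456 under median centring, and 829 to 1151 and 1451 to 1731 without 1 array.

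Some small differences that did not pass changed sign. Under median centring Cyp27a1 was 0.17, Cyp27b1 0.056, Cyp39a1 0.028, Cyp4a3 0.13, Cyp4a8 0.13, Cyp4v3 0.041, Cyp8b1 0.26 and Rara 0.25. After quantile normalization Cyp27a1 was 0.057, Cyp27b1 0.057, Cyp4a3 0.12, Cyp4a8 0.089, Cyp8b1 0.23 and Rara 0.097. Cyp2j3 averaged over its probe sets was -0.73, and Ahr without probe sets of shared types was 0.13. Without 1 array Cyp8b1 ranged from -0.24 to 0.13, Cyp4a8 from -0.40 to 0.074 and Cyp2j3 from -0.34 to 0.62. The cause of these changes was not tested. The 37 Cyp genes with a mean log2 value under 7 were near the floor of the array, and precision is limited by 3 arrays a fraction.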

Other observations

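Among the 7 probe sets annotated to several symbols with a Cyp gene, 1 stood out after its values were seen. This probe set, whose annotation joins 2 symbols and so names no gene, had 8.61, 12.9 and 8.15 in IMCD and 359, 194 and 292 in nonIMCD, with a log2 difference of -3.49 ± 0.24 (SE, limma adjusted p = 0.000611). Its IMCD intensities lie under the highest negative control of 78.4, so the size is uncertain. None of the other 6 passed in limma, with 0 higher and 1 lower at an unadjusted p under 0.05.

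The aromatase Cyp19a1 had 3 probe sets, of which a dim one had 9.43, 47 and 32.7 in IMCD against 72.9, 62.8 and 73.1 in nonIMCD (limma adjusted p = 0.0946), while the brightest gave -0.12 (adjusted p = 0.841). For Cyp2d4, a xenobiotic P450 also known from the brain, the brighter and the dimmer probe set gave -0.34 and -0.69 (limma adjusted p = 0.408 and 0.114).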
